A study of Mus musculus with 16 samples.

Results

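The genes described here are 2 neurotrophins and 4 of the receptors that bind them, in the cortex of newborn mice. They were chosen by name from the deposited table, as Bdnf, Ntf3, Ntrk2, Ntrk3, Ngfr and Sort1, and they make up 6 of its 36930 entries. Cortical RNA of 16 pups was sequenced at P7, from 8 Avil-ChR2 and 8 ChR2-flfl animals on a C57BL6 background, both sexes mixed. All pups had been placed under blue light for 1 h per day from P1 to P5, and all carried a floxed channelrhodopsin-2/tdTomato construct in the Rosa26 locus. In Avil-ChR2 pups a Cre driven by the advillin promoter had removed the STOP cassette. The study assumes that the light-gated channel is then made mainly in peripheral sensory neurons, which reach the cortex by way of the spinal cord and thalamus. ChR2-flfl pups had no Cre and were exposed to the same light without being sensitive to it. The design thus compares genotypes under light, with no unexposed pups analysed here, and the controls were Cre-negative litter mates whose litters the labels do not name. The comparison asks whether early activation of nociceptors, a model of early-life-pain, is accompanied by other levels of these genes in the cortex.

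Neurotrophins are secreted growth factors that keep neurons alive, shape their dendrites and tune their synapses. BDNF binds the tyrosine kinase receptor TrkB and NT-3 binds TrkC, and transcription of Bdnf in cortical neurons rises with neuronal activity, which makes it a common readout of sensory input during early postnatal life. The precursor forms bind p75NTR together with sortilin instead, which can lead to cell death or synapse loss.

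Bdnf, encoding BDNF, lies on chr2:109674700-109727043 (GRCm38, plus strand). Ntf3, encoding NT-3, lies on chr6:126101412-126166791 on the minus strand. The TrkB gene Ntrk2 spans 327402 bp at chr13:58806569-59133970 on the plus strand, and the TrkC gene Ntrk3 spans 398867 bp at chr7:78179986-78578852 on the minus strand. Ngfr, the p75NTR gene, lies on chr11:95568818-95587698 on the minus strand, and Sort1, the sortilin gene, on chr3:108283026-108361519 on the plus strand. The spans of Ntrk2 and Ntrk3 were at the 97.6 and 98.3 percentile of the genes tested. Each value is a sum over all transcripts of the gene, and whether intronic reads were included is not given in the sources used here. Full-length and truncated forms of the Trk receptors, of which the annotation holds 10 transcripts for Ntrk2 and 20 for Ntrk3, were thus not separated.

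The Bdnf value sums transcripts from several start sites. RefSeq windows for GRCm38.p6 were matched to 4 of the 6 genes, with 7 starts for Bdnf, 2 for Ntf3 and 1 each for Ntrk2 and Ngfr. The 250 bases before each start were searched on both strands for the cAMP response element, the motif of the activity-regulated factor CREB, spelled TGACGTCA, and for its variant TCACGTCA. The only one of these 11 windows with a match belongs to the third Bdnf start (chr2:109692186-109692435, GRCm38.p6, plus strand), the start best known for activity-dependent transcription. It is shown, with the variant motif in capitals, because it is the stretch through which sensory input is classically linked to this gene.
Bdnf, the third start, upstream: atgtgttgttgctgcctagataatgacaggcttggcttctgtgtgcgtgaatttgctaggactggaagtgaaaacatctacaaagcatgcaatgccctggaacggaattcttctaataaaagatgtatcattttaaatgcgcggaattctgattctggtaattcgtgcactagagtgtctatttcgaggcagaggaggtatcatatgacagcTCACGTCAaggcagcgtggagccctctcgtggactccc
Of all 32851 windows of this length, 0.35% held the variant and 1.55% the palindromic motif. A match describes letters only, and the share of Bdnf reads that came from this start cannot be read from gene-level values.

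The reads behind each library numbered 30549126 to 48711134, with the lowest in ChR2-flfl replicate 3 and at least 47791532 in all others. Avil, the gene whose promoter drives Cre, was at 0.825 to 1.46 normalized reads in ChR2-flfl pups and at 37.3 to 46.4 in Avil-ChR2 pups, so that every library matched its labelled genotype. The genotypes thus also differed in Avil reads within the cortex itself. Whether Cre or the channel was made there was not tested, and in this design that cannot be told apart from activation of nociceptors. Normalized reads are reads scaled to the size of the library with TMM factors (TMM CPM). The pups are numbered 26 to 33 and 35 to 42. Either series holds 4 Avil-ChR2 and 4 ChR2-flfl animals, and comparisons were also made within these earlier- and later-numbered pups. The labels do not say what separates the series. The 6 markers of cortical neurons, among them Snap25 and Slc17a7, were high, with summed levels of 2950 to 3380 normalized reads, as the labelled tissue requires.

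All 6 genes had reads in 16 of 16 pups and passed the filter on low values. The receptors differed widely in abundance. Per kilobase of the longest annotated transcript, Ntrk2 was highest at 65.9 ± 2.46 normalized reads per kb (SD, n = 16), followed by Sort1 at 47.1 ± 2.26. These levels lie at the 95.8 and 93.1 percentile of 17474 genes with a known length. Ntrk3 reached 7.03 ± 0.798, Ntf3 3.19 ± 0.597, Bdnf 1.58 ± 0.252 and Ngfr 0.789 ± 0.253 on the same scale. Every pup showed this order, and the ranges of neighbours over the 16 pups did not overlap. With the union of all exons as length, Sort1 stood above Ntrk2, with 42.5 against 29.9 normalized reads per kb. The ranges of Ntrk3 and Ntf3 then overlapped, and Bdnf was above Ngfr in 12 of 16 pups only. The P7 cortex hence held far more transcript of the TrkB and sortilin genes than of both ligands and p75NTR, whichever length was used.

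None of the 6 genes differed between genotypes at an adjusted p under 0.05 in limma over 21183 genes, against 2 genes or 0.00944% of all. By limma's unadjusted p, Ntrk3 alone was under 0.05, which 5.41% of all genes had, and Sort1 was as well with the series of pup numbers, described above, as a covariate (0.0398 in place of 0.0838). None had groups without overlap, which 0.0283% of all genes had. The median log2 difference of all genes was 0.002.

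**Figure D1:**
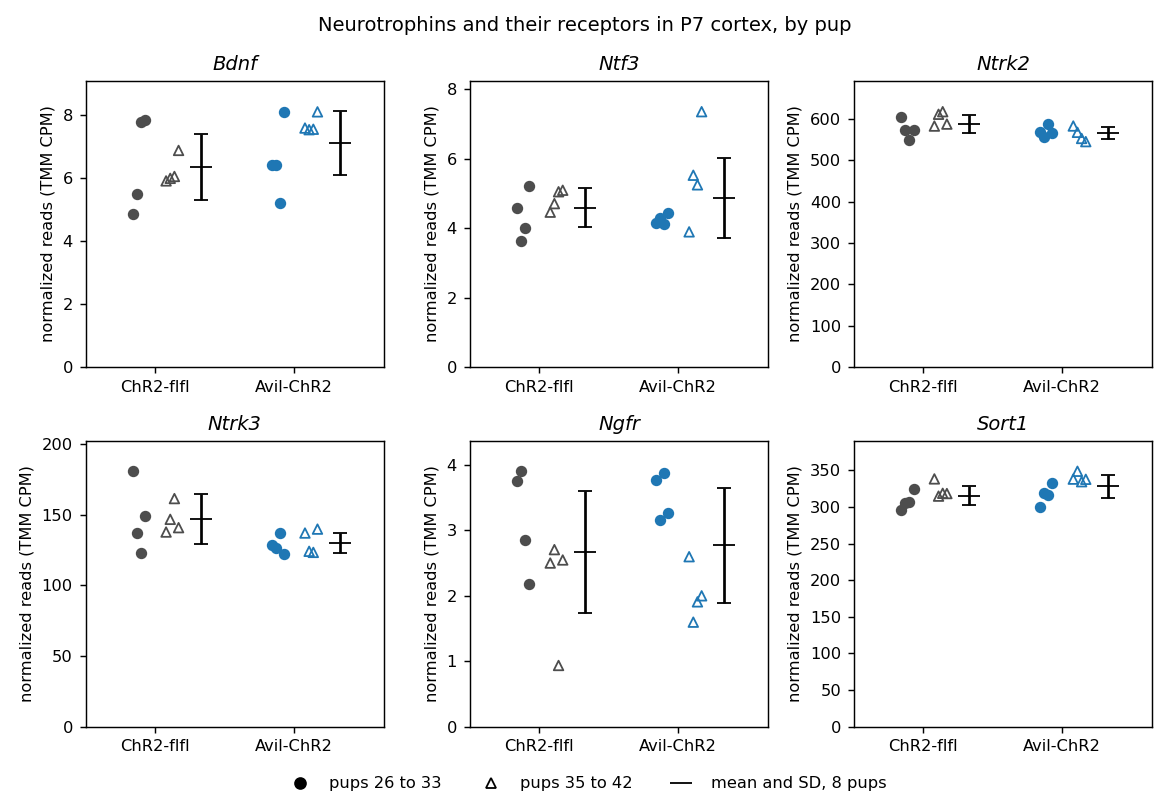
Normalized reads (TMM CPM, y axis from 0) of the 6 genes in each of 16 pups, by genotype; filled circles are pups 26 to 33, open triangles pups 35 to 42, and bars the mean and SD of 8 pups. The genotypes overlap in every panel. Ngfr is higher in the earlier-numbered pups of both genotypes, and the later-numbered pups are apart for Bdnf.

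Among the ligands, Bdnf was at 4.87 to 7.83 normalized reads in ChR2-flfl pups, with a median of 6.01. In Avil-ChR2 pups it was at 5.20 to 8.10, with a median of 7.53. The Avil-ChR2 pups lay mostly in the upper part of a shared range, with 7 of 8 over the mean of ChR2-flfl. Means were 6.34 ± 1.06 and 7.10 ± 1.01 (SD, n = 8 each). The log2 difference of Avil-ChR2 minus ChR2-flfl was 0.17 with an SE of 0.10 (95% interval -0.05 to 0.38, limma p = 0.124, adjusted p = 0.945; two-sided exact permutation p = 0.164). A difference was not detectable at this spread. Each pup gave 236 to 393 Bdnf reads, and the SD between pups of one genotype, 0.23 on the log2 scale, was larger than the 0.0817 that counting error would give.

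The Bdnf values were also set apart by pup numbers. In the earlier-numbered pups the means were 6.49 ± 1.53 and 6.53 ± 1.19 normalized reads in ChR2-flfl and Avil-ChR2 (n = 4 each), with the 4 ChR2-flfl pups at 4.87, 5.50, 7.76 and 7.83 and the 4 Avil-ChR2 pups at 6.40, 6.40, 5.20 and 8.10. In the later-numbered pups the 4 ChR2-flfl values were 5.90, 5.98, 6.04 and 6.87, and the 4 Avil-ChR2 values were 7.58, 7.52, 7.54 and 8.09. The genotypes overlapped in the former and were apart in the latter, where all Avil-ChR2 pups were higher. The log2 difference there was 0.31 with an SE of 0.082 (limma p = 0.00235, adjusted p = 0.884; exact permutation p = 0.0286, the smallest that 4 against 4 allows). In these pups groups were apart in 3.19% of all genes and 5.47% had an unadjusted limma p under 0.05. That was so for 3.17% in the earlier-numbered pups. In the earlier-numbered pups the groups were apart in 1.81% of all genes, and the log2 difference of Bdnf was 0.022 (exact permutation p = 0.943). The difference between the series, 0.29 on the log2 scale with an SE of 0.20, did not pass the test of the genotype by series interaction (limma adjusted p of 1.0), in which 3.04% of all genes and none of the 6 had an unadjusted p under 0.05. The larger difference in 1 series was not shown to be particular to it.

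Ntf3 was at 3.63 to 5.22 normalized reads in ChR2-flfl pups, with a median of 4.64, and at 3.89 to 7.35 in Avil-ChR2 pups, with a median of 4.37. A single Avil-ChR2 pup, replicate 8, was above all others, and only 3 of 8 Avil-ChR2 values exceeded the mean of ChR2-flfl. Means were 4.59 ± 0.553 and 4.87 ± 1.15 (SD, n = 8 each). The log2 difference was 0.066 with an SE of 0.12 (limma p = 0.574, adjusted p = 0.985; exact permutation p = 0.636). Without Avil-ChR2 replicate 8 it was -0.023, so the sign of the Ntf3 difference rested on that pup.

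Of the Trk receptors, Ntrk3 had the lowest p of the 6 genes. It was at 123 to 181 normalized reads in ChR2-flfl pups, with a median of 144. In Avil-ChR2 pups it was at 122 to 140, with a median of 128. All 8 Avil-ChR2 pups lay under the mean of ChR2-flfl, but only 1 lay below the lowest ChR2-flfl pup, because the ChR2-flfl pups spread more widely. Means were 147 ± 17.5 and 130 ± 7.12 (SD, n = 8 each), and the log2 difference was -0.17, or -11.4% (SE 0.058, 95% interval -0.29 to -0.054, on the log2 scale). The limma p was 0.00675, the adjusted p over all genes 0.825, and the exact permutation p 0.0146. Of all genes, 3.46% were lower in Avil-ChR2 pups at an unadjusted p under 0.05, so Ntrk3 was 1 of 732 such genes.

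The Ntrk3 difference had about the same size in both series of pups, -0.19 in the earlier-numbered (limma p = 0.0674, exact permutation p = 0.2) and -0.16 in the later-numbered ones (limma p = 0.0148, exact permutation p = 0.0571). The genotype by sex interaction was -0.23 on the log2 scale with an SE of 0.11, the genotype difference being more negative in males. It was just under 0.05 before adjustment (limma adjusted p = 0.993). By the labels there were 5 females and 3 males in Avil-ChR2 and 4 of each sex in ChR2-flfl. The study's own list differs for the sex of Avil-ChR2 replicate 4, and the interaction was not repeated with that sex. In that test 4.31% of all genes had an unadjusted p under 0.05, and of the 6 genes Ntrk3 alone.

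Ntrk2 was at 549 to 617 normalized reads in ChR2-flfl pups, with a median of 585, and at 545 to 587 in Avil-ChR2 pups, with a median of 566. All 8 Avil-ChR2 pups lay under the mean of ChR2-flfl, within or just under the ChR2-flfl range. Means were 587 ± 22.8 and 565 ± 14.2 (SD, n = 8 each). The log2 difference was -0.054 with an SE of 0.026 (95% interval -0.109 to 0.001; limma p = 0.0524, adjusted p = 0.911; exact permutation p = 0.0392). It was -0.015 in the earlier-numbered pups (limma p = 0.719) and -0.094 in the later-numbered pups (limma p = 0.0249, adjusted p = 0.884; exact permutation p = 0.0571).

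Both Trk genes are long, and their levels were compared with a property of the libraries. In each library a slope of log2 normalized reads on log10 gene span was taken over genes with a mean log2 level of at least 0. The slope ranged from 0.868 to 0.974 in ChR2-flfl and from 0.864 to 0.934 in Avil-ChR2 pups, and libraries with a steeper slope held relatively more reads of long genes. Most Avil-ChR2 libraries lay between 0.8636 and 0.8835 and most ChR2-flfl libraries between 0.8884 and 0.9735, so the slope went in part with genotype. Centred by genotype, Ntrk3 correlated with the slope with Pearson's r = 0.53 and Spearman's rho = 0.60 (permutation p = 0.0361 and 0.0157, adjusted over 12 relations 0.0721 and 0.0376; r = 0.61 without the 2 pups at the extremes, 0.67 and 0.49 within the earlier- and later-numbered pups). For Ntrk2 r was 0.55 and rho 0.51 (permutation p = 0.0273 and 0.0485, adjusted 0.0655 and 0.0831; r = 0.47 without 2 pups, 0.43 and 0.84 within the series). After adjustment only the rho of Ntrk3 was under 0.05. Long genes tend to rise with this slope by the way it is built, and the r of other genes of like span was not compared. These p-values thus do not set the Trk genes apart from other long genes. With the slope as a covariate the genotype difference was -0.10 for Ntrk3 (limma adjusted p = 0.888) and -0.028 for Ntrk2 (limma adjusted p = 0.917), both with an unadjusted p above 0.05. Because the slope went in part with genotype, this fit cannot separate them. Genes with a mean log2 level of at least 0 and a span of at least that of Ntrk2 numbered 481. Of these, 358 were lower and 123 higher in Avil-ChR2 pups, with a median log2 difference of -0.040. The Ntrk3 difference of -0.17 was further from 0 than this median, and the Ntrk2 difference of -0.054 was close to it. Where either gene lay within the spread of these genes was not examined. Whether the slope reflects RNA quality or the cells sampled was not tested.

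**Figure D2:**
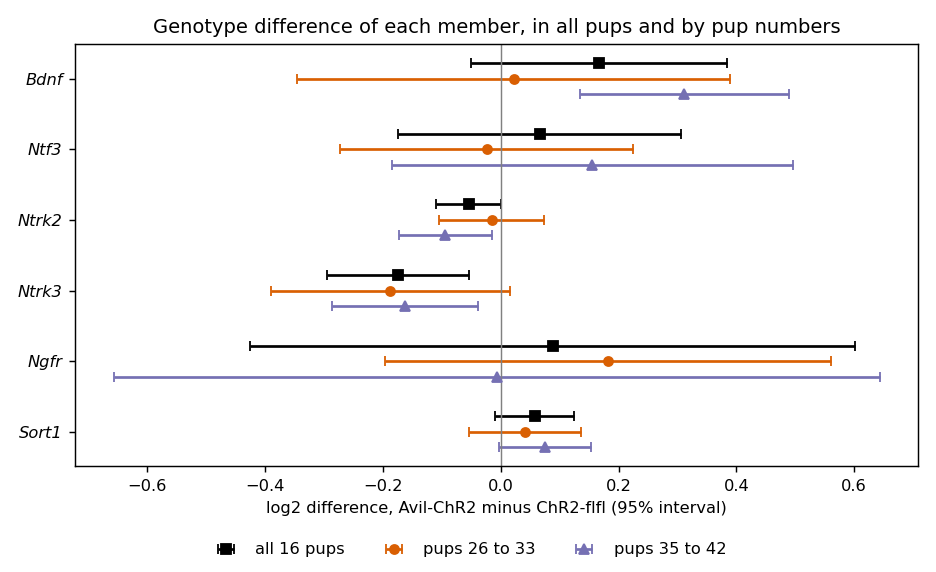
Log2 difference of Avil-ChR2 minus ChR2-flfl (x axis) with its 95% limma interval for each of the 6 genes, in all 16 pups (squares), pups 26 to 33 (circles) and pups 35 to 42 (triangles). The interval of Ntrk3 in all pups, -0.29 to -0.054, lies below 0. That of Bdnf lies above 0 only in the later-numbered pups.

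The receptors of the precursor forms showed other patterns. Ngfr was at 0.934 to 3.90 normalized reads in ChR2-flfl pups, with a median of 2.62, and at 1.60 to 3.87 in Avil-ChR2 pups, with a median of 2.87. The groups shared nearly their whole range, with 4 of 8 Avil-ChR2 values over the mean of ChR2-flfl. Means were 2.67 ± 0.927 and 2.77 ± 0.874 (SD, n = 8 each). The log2 difference was 0.088 with an SE of 0.25 (95% interval -0.43 to 0.60; limma p = 0.724, adjusted p = 0.988; exact permutation p = 0.775), an interval too wide to exclude a sizeable difference. Without ChR2-flfl replicate 7 the difference was -0.11. Ngfr was the most variable of the 6 genes, with a 4.17-fold range, 45 to 188 reads per pup and an SD within genotypes of 0.57 on the log2 scale, against 0.129 from counting.

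Sort1 was at 296 to 338 normalized reads in ChR2-flfl pups, with a median of 316, and at 299 to 349 in Avil-ChR2 pups, with a median of 334. The ranges overlapped, although 7 of 8 Avil-ChR2 values exceeded the mean of ChR2-flfl. Means were 315 ± 12.9 and 328 ± 15.7 (SD, n = 8 each). The log2 difference was 0.058 with an SE of 0.032 (95% interval -0.009 to 0.125; limma p = 0.0838, adjusted p = 0.927; exact permutation p = 0.0928). It was 0.041 in the earlier-numbered and 0.076 in the later-numbered pups (exact permutation p = 0.371 and 0.114).

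Ngfr values lay apart by pup numbers more than by genotype. Ngfr was at 2.17 to 3.90 normalized reads in the 8 earlier-numbered pups and at 0.934 to 2.70 in the 8 later-numbered pups. All earlier-numbered pups but ChR2-flfl replicate 4 were above every later-numbered pup. The later-numbered minus earlier-numbered difference was -0.72 on the log2 scale with an SE of 0.19 (limma adjusted p = 0.118), with means of 3.34 ± 0.61 and 2.10 ± 0.612 (SD, n = 8 each). This comparison was chosen after the values had been seen, and in it 12.5% of all genes had an unadjusted p under 0.05 and 0.123% an adjusted one. Sort1 had the opposite sign with a log2 difference of 0.083 (limma adjusted p = 0.195), as did Ntf3 with 0.25 (limma adjusted p = 0.325), and Ngfr, Sort1 and Ntf3 were under 0.05 before adjustment. Bdnf, Ntrk2 and Ntrk3 had differences of 0.11, 0.021 and 0.016 (limma adjusted p = 0.722, 0.8 and 0.943).

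Markers of the subplate, a transient layer of deep cortical neurons that persists in part after birth, were compared with Ngfr. The 5 markers Ctgf, Nxph4, Cplx3, Nr4a2 and Moxd1 summed to 40.0 to 72.5 normalized reads in the earlier-numbered and to 22.6 to 58.5 in the later-numbered pups. Their median difference of later- minus earlier-numbered pups was -0.96 on the log2 scale, and 4 of 5 had an unadjusted limma p under 0.05, all lower in the later-numbered pups. Moxd1, at -0.017, was not among them, and 2 passed the adjusted test, Ctgf with -0.84 (limma adjusted p = 0.0462) and Nr4a2 with -1.54 (limma adjusted p = 0.0449). By genotype the sums overlapped, with 22.6 to 65.7 in ChR2-flfl and 23.1 to 72.5 in Avil-ChR2, and none of the 5 had an unadjusted p under 0.05. None of the markers was at 0 in the group means.

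The correlations with the subplate markers were chosen after the values had been seen. The list also holds Nxph4, the gene most like Ngfr (r = 0.92), so the p-values below are descriptive and no independent test. Over the 16 pups, centred by genotype, Ngfr correlated with the mean log2 level of the subplate markers with Pearson's r = 0.84 and Spearman's rho = 0.86 (permutation p = 3e-05 and 6e-05, adjusted over 12 relations 0.00036 and 0.00072). It was 0.81 without the 2 pups at the extremes, and 0.81 and 0.64 within the earlier- and later-numbered pups, with 0.67 when centred by genotype and series (adjusted permutation p = 0.0378). Sort1 had r = -0.74 and rho = -0.78 (permutation p = 0.001 and 0.0006, adjusted 0.004 and 0.0036; r = -0.87 without 2 pups), and Ntf3 r = -0.73 and rho = -0.64 (permutation p = 0.00092 and 0.00835, adjusted 0.004 and 0.0292; r = -0.57 without 2 pups). Centred by series as well, these were -0.44 for Sort1 and -0.58 for Ntf3 (adjusted permutation p = 0.175 and 0.0508). The value of Ntf3 lay just above the threshold and that of Ngfr just under it, so the relation was not shown to be particular to Ngfr. Whether the pieces of cortex differed in how much subplate they held, or the subplate cells in their RNA, cannot be told apart in bulk tissue, and the same holds for every gene described here. With the mean of the subplate markers as a covariate the genotype difference of Ngfr was 0.10 (limma adjusted p = 0.952), whereas with the length slope as a covariate it turned to -0.32 (limma adjusted p = 0.893). The latter fit cannot separate slope from genotype, as described above. Ngfr also correlated with the length slope (r = -0.70 and rho = -0.63, permutation p = 0.00219 and 0.00973, adjusted 0.00657 and 0.0292), with r = -0.39 without the 2 pups at the extremes, -0.48 and -0.65 within the earlier- and later-numbered pups, and -0.58 when centred by genotype and series (adjusted permutation p = 0.0508).

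**Figure D3:**
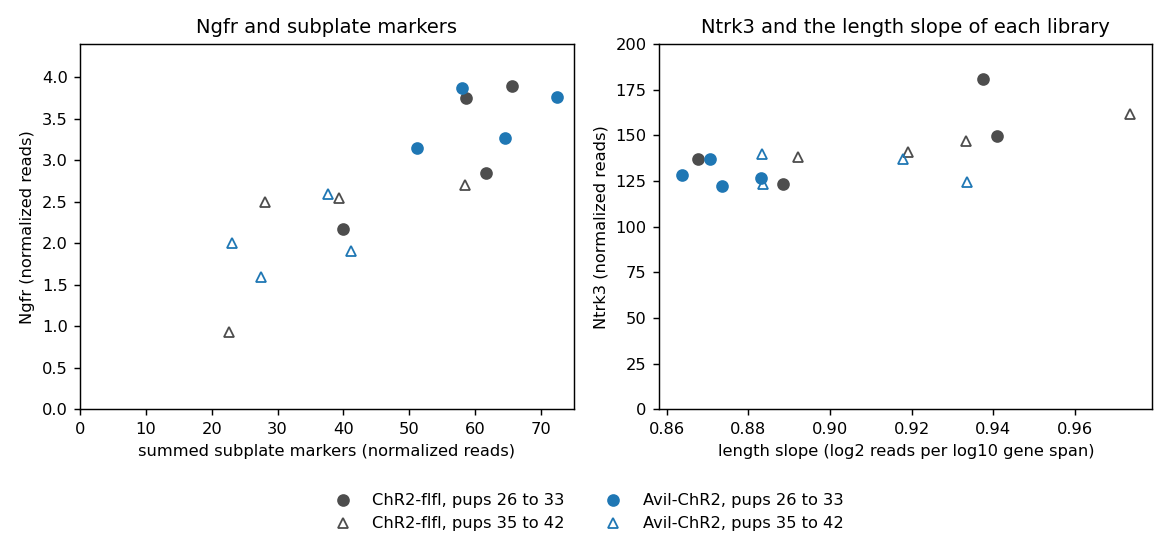
Left, Ngfr against the summed level of 5 subplate markers (both in normalized reads); right, Ntrk3 in normalized reads against the slope of log2 reads on log10 gene span of each library. Each point is 1 of 16 pups, with genotype by colour and pup numbers by symbol. The lowest Ngfr value, 0.934, belongs to the pup with the lowest subplate sum, 22.6, and the pup with the highest Ntrk3 value, 181, has a slope of 0.937.

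Ratios of ligands and receptors are given as descriptions without a test. The ratio of Ntrk2 to Ntrk3 was 4.02 ± 0.344 in ChR2-flfl and 4.36 ± 0.23 in Avil-ChR2 pups (SD, n = 8 each), with 7 of 8 Avil-ChR2 values over the mean of ChR2-flfl and 3 above the highest ChR2-flfl pup. Bdnf to Ntrk2 was 0.0109 ± 0.00212 and 0.0126 ± 0.00195, and Ntf3 to Ntrk3 was 0.0314 ± 0.00374 and 0.0375 ± 0.00828, with 7 and 6 of 8 Avil-ChR2 values over the mean of ChR2-flfl. Log2 differences of these ratios were 0.22 and 0.24 in all pups, and by series 0.037 and 0.41 for Bdnf to Ntrk2 and 0.16 and 0.32 for Ntf3 to Ntrk3. Both ratios were thus on average higher in Avil-ChR2 pups, with overlapping groups. For Ntf3 to Ntrk3, 5 of 8 Avil-ChR2 values exceeded the median of ChR2-flfl. The log2 differences of Ntf3 and Ntrk3 alone were 0.066 and -0.17, and the sign of the former rested on 1 pup. Both receptor genes are long, and whether these ratios follow the length slope of the libraries was not tested. Ngfr to Sort1 was 0.00854 in both genotypes.

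Between pups, the 6 genes formed 15 pairs. After centring by genotype none of the Pearson correlations passed a permutation test at an adjusted p under 0.05, and 5 had an unadjusted p under 0.05. Both Trk receptors went together, with r = 0.64 and rho = 0.57 for Ntrk2 and Ntrk3 (permutation p = 0.00686 and 0.0231, adjusted 0.0612 and 0.112). This r was 0.42 without the 2 pups at the extremes, so it rested in part on them, and 0.76 when centred by series as well (adjusted permutation p = 0.00945), with 0.93 and 0.47 in the earlier- and later-numbered pups. Bdnf went against its receptor, with r = -0.57 and rho = -0.46 for Bdnf and Ntrk2 (permutation p = 0.0207 and 0.0747, adjusted 0.0778 and 0.15; r = -0.43 without 2 pups, -0.75 and -0.42 within the series).

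Centred by genotype alone, Ngfr was low where Sort1 and Ntf3 were high. For Ngfr and Sort1 r was -0.61 and rho -0.78 (permutation p = 0.0122 and 0.00061, adjusted 0.0612 and 0.00915; r = -0.73 without 2 pups). Within the series it was -0.70 and 0.05, so the relation did not hold in the later-numbered pups. For Ntf3 and Ngfr r was -0.62 and rho -0.71 (permutation p = 0.0122 and 0.00295, adjusted 0.0612 and 0.0221; r = -0.63 without 2 pups, -0.70 and -0.31 within the series). Bdnf and Sort1 had r = 0.52 and rho = 0.53 (permutation p = 0.0386 and 0.0375, adjusted 0.116 and 0.112; r = 0.34 without 2 pups), with 0.63 and -0.34 within the series. Centred by series as well, r was -0.25 for Ngfr and Sort1 and -0.4 for Ntf3 and Ngfr (adjusted permutation p = 0.464 and 0.375). For Bdnf and Sort1 it was then 0.47 (adjusted permutation p = 0.256). All 16 points of these relations share the TMM scaling of their library.

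**Figure D4:**
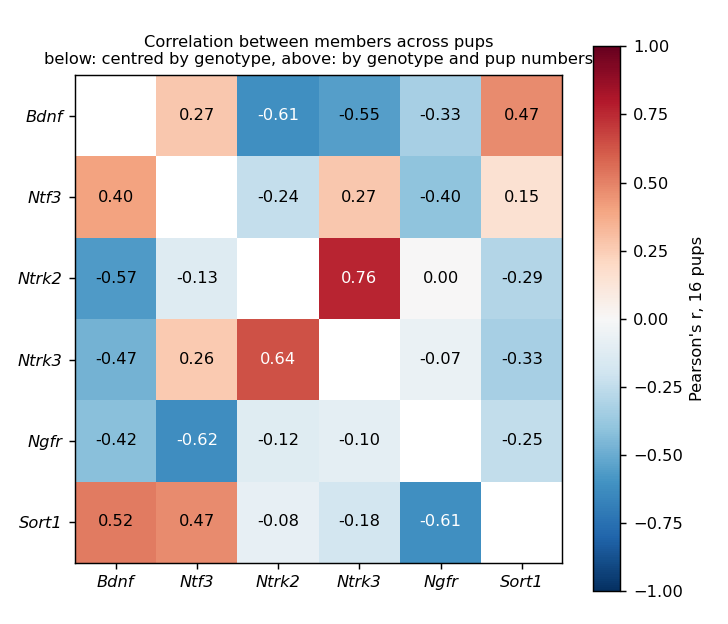
Pearson's r between the log2 levels of the 6 genes over 16 pups, centred by genotype below the diagonal and by genotype and pup numbers above it, with colour from -1 (blue) to 1 (red). Ntrk2 and Ntrk3 have 0.64 and 0.76; the negative r of Ngfr and Sort1 goes from -0.61 to -0.25 with the second centring.

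The genes most alike in pattern were looked up among 15137 genes by Pearson's r of genotype-centred log2 levels over the 16 pups, as a description. Ntrk3 went with Grin2b (r = 0.94), a subunit of the NMDA receptor, and with Zfp704 (0.93) and Lrp8 (0.92), a reelin receptor. Sort1 went with Sphkap (0.96), Jam2 (0.94) and Dcaf7 (0.92), and Ngfr with Nxph4 (0.92), itself 1 of the 5 subplate markers, Mrpl51 (0.91) and 9330111N05Rik (0.91). Bdnf went with Oxr1 (0.89), Angpt1 (0.88) and Bnip3l (0.88). Ntf3 went with Il17rd (0.89), Mturn (0.88) and Bhlhe40 (0.87), and Ntrk2 with Snrnp200 (0.89), Heatr5b (0.88) and Dip2c (0.88). Of the other subplate markers, Ctgf ranked 34 among these genes for likeness to Ngfr (r = 0.86), Nr4a2 ranked 328 (0.75), Cplx3 387 (0.74) and Moxd1 5545 (0.14). Strong relations to single markers were not confined to Ngfr. Ntf3 had r = -0.85 with Cplx3 and Sort1 r = -0.77 with Ctgf, whereas with Moxd1 they had 0.34 and 0.0.

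Other genes of the pathway were taken from a list of 49 genes, and 48 were high enough to be tested. Of these, 30 were higher and 18 lower in Avil-ChR2 pups, with a median log2 difference of 0.016. None passed the adjusted test, and 3 or 6.25% had an unadjusted p under 0.05, against 5.41% of all genes tested. The share was near the background.

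Of the ligands outside the 6, Ntf5, encoding NT-4, did not pass the filter. Of the 4 other sortilin-family receptors, none had an unadjusted p under 0.05. The most abundant, Sorl1, was at 128 normalized reads with a log2 difference of -0.010 (exact permutation p = 0.89). Among 7 genes for cleavage, sorting and release, Cpe was both the most abundant, at 979 normalized reads, and the only one with an unadjusted p under 0.05. Cpe encodes carboxypeptidase E, a sorting receptor for BDNF vesicles, and its log2 difference was 0.070 with an SE of 0.033 (limma p = 0.0493, adjusted p = 0.911; exact permutation p = 0.0402), with 7 of 8 Avil-ChR2 values over the mean of ChR2-flfl.

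None of the 13 adaptors and coreceptors of Trk receptors had an unadjusted p under 0.05, and their log2 differences lay between -0.039 and 0.092. Kidins220, a scaffold of Trk receptors, was the most abundant at 583 normalized reads, with -0.039 (exact permutation p = 0.22). The 7 partners of p75NTR likewise had none, with Maged1 as the most abundant at 573 normalized reads and a log2 difference of 0.046 (limma p = 0.0657, exact permutation p = 0.0345). The 7 transcriptional regulators of Bdnf had a median log2 difference of -0.030. Among them 1 gene, lower in Avil-ChR2 pups and not reported here by name, had an unadjusted p under 0.05. Mef2c, the most abundant of them at 2050 normalized reads, had -0.043 (exact permutation p = 0.472).

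The 8 genes known to be induced by BDNF in neurons had log2 differences of 0.002 to 0.27, with a median of 0.13, but only Fos had an unadjusted p under 0.05. Differences were above 0 for all 8, as for 10885 of all 21183 genes, and those of Nr4a1 and Dusp6 were below 0 in the earlier-numbered pups, with -0.053 and -0.007. Fos, an immediate early gene that also follows neuronal activity without BDNF, had the largest of these differences with 0.27 and an SE of 0.10 (limma p = 0.0165, adjusted p = 0.841; exact permutation p = 0.0207) and exceeded the mean of ChR2-flfl in 6 of 8 Avil-ChR2 pups. The most abundant, Dusp6, a phosphatase of the ERK pathway, was at 39.7 normalized reads with 0.033 (exact permutation p = 0.575). These 8 genes include several immediate early genes, which are switched on by the same stimuli, so their common direction is not 8 separate observations.

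**Figure D5:**
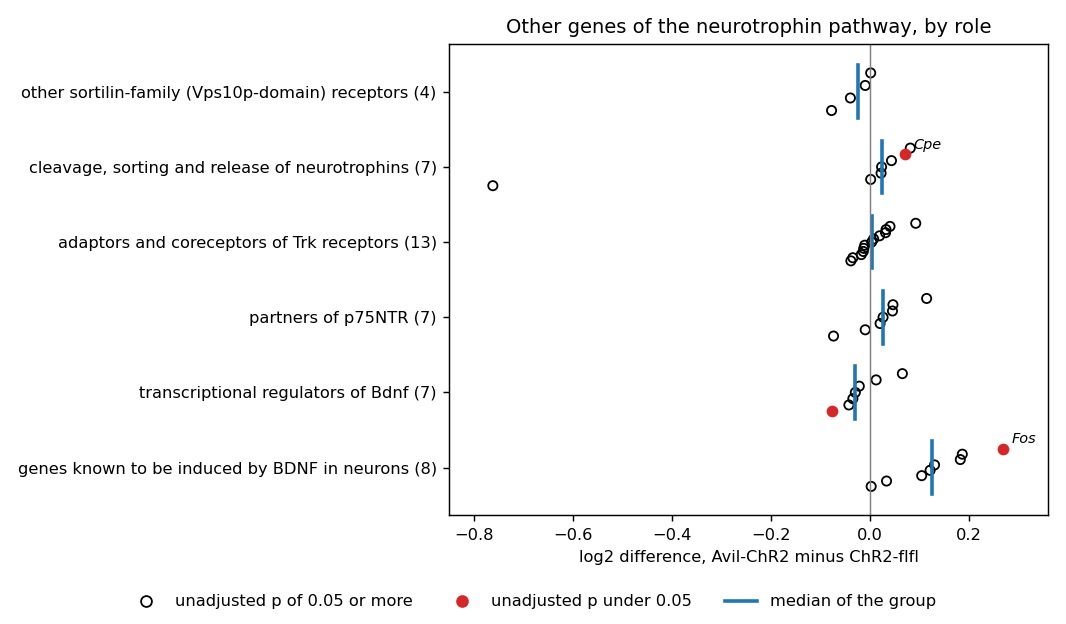
Log2 difference of Avil-ChR2 minus ChR2-flfl (x axis) of 46 pathway genes in 6 role groups, with the number of genes in brackets. Filled points have an unadjusted limma p under 0.05 and vertical bars are group medians. The median is 0.126 for genes induced by BDNF, and between -0.030 and 0.026 in the other groups drawn.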

How the data were processed

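RNA of the cortex of 16 pups was sequenced. Per the labels and the study's methods, SeqMan NGen was used by the authors for adapter trimming and for alignment to mm10 (GRCm38), with a minimum read length of 50 bp. Gene-level reads came from ArrayStar, and TMM factors of edgeR were applied by the authors. The deposited values are CPM on a linear scale, written with decimal commas, with 1 column per pup. The values are whole multiples of that of 1 read (100% of values of up to 20000 reads within 0.05), which gave the reads per gene and pup. No molecular identifiers were used, so depth covers counting error only. Whether counting used the strand is not given in the sources used here. The table also holds the authors' own comparison columns (fold changes and p-values), which were not used.

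For the tests the log2 of each value was taken, with no pseudocount added. Missing values and values below -5 were set to -5, in place of an imputation, and entries above -5 in at least 12 of 16 pups were kept, 21183 in all. Of these, 4432 values were at the floor, none in the 6 genes. Genotypes were compared with limma 3.58.1 (R 4.3.3, trended prior, no covariate) with Benjamini-Hochberg adjustment over all genes kept. For the 6 genes an exact permutation test over all 12870 assignments was added, two-sided. Correlations used 100000 permutations. The fit was tested on simulated data. Count models that had been planned were not used. All tests were run on the deposited normalized values, although the reads per gene could be recovered from them. The p-values measure the spread between pups, and litters are not given in the labels.

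Groups, replicates and pup numbers came from the labels. Sexes came from the labels too, which differ from the study's own list for Avil-ChR2 replicate 4. Genes, lists and tests were chosen with earlier results of these data known, and the comparison by pup numbers, the subplate covariate and its 12 correlations after their values were seen. Named are the 6 genes, the 3 genes most alike for each, Cpe and Fos of the pathway genes with an unadjusted p under 0.05, the most abundant of each role, Avil and marker genes. Ntf5 and the listed subplate markers were named for completeness, and some pathway genes are counted but not reported here by name. Markers of astrocytes, oligodendrocyte lineage, endothelial and mural cells, meningeal fibroblasts, hippocampus, striatum and sensory ganglion neurons held no gene at an unadjusted p under 0.05 by genotype, the neuron and choroid plexus lists 1 each.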

Additional observations from a re-analysis of the deposited data

Results flagged for a closer look

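Each gene and genotype was checked for a pup far from the rest of its group, in 12 groups on 2 scales, a check that chance passes in about 1 of 20 groups. Ntf3 was at 7.349 normalized reads in Avil-ChR2 replicate 8, above the other 7 Avil-ChR2 pups, the highest of which had 5.52. It stood out on the linear scale only, with a gap of 0.529 of the group's range, and not on the log2 scale, with 0.45. Ngfr was at 0.934 normalized reads, or -0.1 on the log2 scale, in ChR2-flfl replicate 7, below the other ChR2-flfl pups, the lowest of which had 2.17. It stood out on the log2 scale only, with 0.59 of the range, and not on the linear scale, with 0.417. That pup also had the lowest subplate sum and the steepest length slope of the 16 libraries, with 22.6 normalized reads and 0.9735, and the part of either in its Ngfr value was not tested.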

How the results depend on the processing

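Each of the 6 differences was computed under 30 alternatives. Bdnf (0.022 to 0.312), Ntrk2 (-0.094 to -0.015), Ntrk3 (-0.21 to -0.104) and Sort1 (0.041 to 0.082) kept their direction in all of them, and no member had an adjusted p under 0.05 in any. Ntrk3 had an unadjusted p under 0.05 in 28 of 30, with a lowest adjusted p of 0.334, Ntrk2 in 9, Sort1 in 7 and Bdnf in 2. For Ntrk3 the unadjusted limma p was 0.0839 with the length slope as covariate and 0.0674 in the earlier-numbered pups. Of the alternatives, 16 leave out 1 pup each and share most pups, so they are not separate tests. The Ngfr difference turned to -0.318 with the length slope as covariate and to -0.007 in the later-numbered pups, and it ranged from -0.114 to 0.192 when 1 pup was left out. Ntf3 turned to -0.024 in the earlier-numbered pups and ranged from -0.023 to 0.108 when 1 pup was left out. The cause was not tested. The count of genes at an adjusted p under 0.05 was 1 in place of 2 with the length slope, with the replicate block and in each series of pups, and 1 to 2 with 1 pup left out. At an unadjusted p it was 672 in the earlier-numbered and 1159 in the later-numbered pups, and 929 to 1581 with 1 pup left out. Both series had the same number of pups. Of the pathway genes, 5 had an unadjusted p under 0.05 without the filter, 1 in the earlier-numbered pups, and 2 to 6 with 1 pup left out, most without Avil-ChR2 replicate 2. Of the 15 correlations, 1 passed in place of 0 when centred by series (Ntrk2 and Ntrk3), and 1 without 2 pups (Ngfr and Sort1). With the union of exons 4 of 6 genes kept their rank by level.

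Replicate numbers are shared between genotypes, but same-numbered pups did not deviate together, with r over 0.1 in 3 of 8 pairs (-0.344 to 0.389) and the own number as best match for 1 of 8. With the replicate block the count at an unadjusted p was 1091, and unadjusted p was 0.0123 for Ntrk3 and 0.0351 for Sort1. edgeR and DESeq2 on the counts, which had been planned as alternatives, were not run. Reads were fewest for Ngfr and Ntf3, with down to 45 and 124 per pup, the latter in the library with the fewest reads. Their spread within genotypes was still larger than counting error on the log2 scale. The SD was 0.567 against 0.129 from counting for Ngfr, and 0.252 against 0.0975 for Ntf3.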
